A study of Mus musculus with 12 samples.

Results

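The genes described here are 10 genes of interleukin-1 receptor and MyD88 signalling, from the ligand to the kinase TAK1, with 2 adaptors of Toll-like receptors, Tirap and Ticam1. They were taken by symbol from a count table of 24421 gene symbols, by a rule that sets no threshold on a measured value. They are Il1b, Il1r1, Il1rap, Myd88, Tirap, Ticam1, Irak4, Irak3, Map3k7 and Tab2. All 10 passed the low-count filter, which kept 12744 genes.

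The libraries were made from mouse bone marrow cells that were GFP-positive and fell in the LSK gate. That gate takes cells without lineage markers that display Kit and Sca-1, among them the blood-forming stem cells. All 12 libraries came from secondary recipient mice, that is, animals given cells that had already been passed through a first host. The engrafted stem and progenitor cells had 4 genotypes with 3 libraries each. In miR146aKO_Runx1mut the cells lacked miR-146a and carried the frameshift mutant Runx1S291fsX300. In miR146aKO they lacked miR-146a and were titled Mir-146 KO/Empty. In Runx1mut they carried Runx1S291fsX300, and in wildtype, titled Empty, neither change. The labels give no meaning for Empty, no route by which mutant Runx1 entered the cells and no age of the mice. Nor do they tie libraries to separate animals. P-values here therefore measure only the spread between these libraries.

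When interleukin-1 binds its receptor, or a microbial product binds a Toll-like receptor, the TIR domains inside the cell gather the adaptor MyD88. MyD88 recruits the kinase IRAK4, which acts on IRAK1 and IRAK2. The ubiquitin ligase TRAF6 then activates the TAK1 kinase complex, which switches on NF-kB and the stress kinases. In blood stem cells interleukin-1 is known to drive division and myeloid output, and miR-146a is known as a brake on this chain through TRAF6 and IRAK1.

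A microRNA recognises its targets mainly through its seed, bases 2 to 8, so the seed of the deleted microRNA and its matches near the chain are shown first. The mature sequences are those of RefSeq (GRCm38.p6), with the seed in capitals. The miR-146a-5p sequence lies at chr11:43374435-43374456 on the minus strand. The related miR-146b-5p lies at chr19:46342790-46342811 on the plus strand and has the same seed.
mmu-miR-146a-5p: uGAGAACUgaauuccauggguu
mmu-miR-146b-5p: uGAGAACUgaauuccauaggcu

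The 3'UTR of 1 protein-coding transcript per gene (GENCODE vM21) was searched, on the transcript strand only, for the reverse complement of the seed, AGTTCTC. A match followed by A is called an 8mer here and any other match a 7mer. Of the 10 genes, 1 held a match, and 1418 of 11660 tested protein-coding genes (12.2%) did. No member held an 8mer, against 511 tested genes (4.38%). The gene with a match was Tirap, with 2 7mers. Of the genes that link these members, Irak1 held 2 8mers, Irak2 held 1 7mer and 1 8mer, and Traf6 held 4 8mers. The matches of Tirap, Irak1 and Irak2 are given with their neighbouring bases, the 7 matching bases in capitals. A match is a description of letters and not a measured site.
Tirap, first match: tgtcggtcagcAGTTCTCcaccctttacgg
Tirap, second match: ccctgtgagccAGTTCTCcccactcttctt
Irak1, first match: tcagaggtcaaAGTTCTCatgcttggaagt
Irak1, second match: tcatgcttggaAGTTCTCatagtgtgcaaa
Irak2, first match: ccaaacctcttAGTTCTCcacaacggacag
Irak2, second match: gtgtctccgcaAGTTCTCaagttcaggact

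Total counts ran from 3540043 to 7026393 per library, with miR146aKO the shallowest group. Mir146 had 0 counts in 11 libraries, those with intact miR-146a among them, so it does not check the labels. Library A031, labelled miR146aKO_Runx1mut, had 14 Mir146 counts, which goes against that label. The Runx1 count cannot show the frameshift. The sorted population was also uneven by its markers. Kit, whose product defines the gate, stood at 24.6 to 59.7 CPM (counts scaled to library size, with TMM factors) in miR146aKO and 218 to 436 CPM in wildtype. Ly6a, which encodes Sca-1, the other protein of the gate, stood the other way, at 505 to 1019 CPM in miR146aKO and 46.0 to 216 CPM in wildtype. B cell markers summed to 530 to 2790 CPM in miR146aKO and 18.6 to 79.4 CPM in wildtype. Libraries are named by the identifier that heads their column.

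Il1b encodes interleukin-1 beta, the ligand (chr2:129364570-129371139, minus strand, GRCm38). It was scarce in these libraries. In miR146aKO_Runx1mut libraries A001, A031 and A051 it had counts of 146, 10 and 0. In miR146aKO libraries A047, A150 and A151 it had 0, 34 and 0. Counts were 10, 0 and 19 in Runx1mut libraries A021, A042 and A058, and 4, 0 and 0 in wildtype libraries A015, A040 and A053. Library A001 held 146 of the 223 reads of all 12 libraries, and 6 libraries held none. The sum of neutrophil markers was highest in A001, at 60102 CPM, with 2 of 14 markers at 0. Next came A021 at 56884 CPM and A051 at 35984 CPM, which held 10 and 0 reads of Il1b. The part of neutrophils in the Il1b levels was not tested.

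In level, A001 stood at 25.2 CPM (exact Poisson 95% interval 21.2 to 29.5 CPM), and in the 6 libraries with no read the upper bound of the same interval was 0.524 to 1.16 CPM. These intervals cover counting error only. The fitted log2 fold change of miR146aKO_Runx1mut over wildtype was 5.39 (SE 2.72, edgeR adjusted p = 0.565). It was 2.11 without A001, 8.58 without A015, the wildtype library with reads, and 8.17 with the level of Y-linked genes as a covariate. Il1bos, which overlaps Il1b on the other strand, had 27 counts in A031 and 1 in A021. The libraries did not keep strand, so reads of the 2 genes cannot be told apart where their exons overlap.

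Il1r1 encodes the receptor that binds interleukin-1 and was the member that varied most between genotypes, with an SD of 1.48 between the group means of log2 CPM. It lies at chr1:40225080-40317257 on the plus strand of GRCm38, with no annotated gene overlapping its exons. Its level was 48.2, 98.1 and 33.2 CPM in miR146aKO_Runx1mut libraries A001, A031 and A051. In miR146aKO it was 12.6, 5.81 and 4.14 CPM in A047, A150 and A151. In Runx1mut libraries A021, A042 and A058 it was 9.08, 7.11 and 54.2 CPM, and in wildtype libraries A015, A040 and A053 it was 36.0, 66.4 and 87.8 CPM. Thus the 3 miR146aKO libraries and 2 of the 3 Runx1mut libraries were low, and those with both changes overlapped wildtype. The highest library stood 23.7-fold above the lowest.

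**Figure D1:**
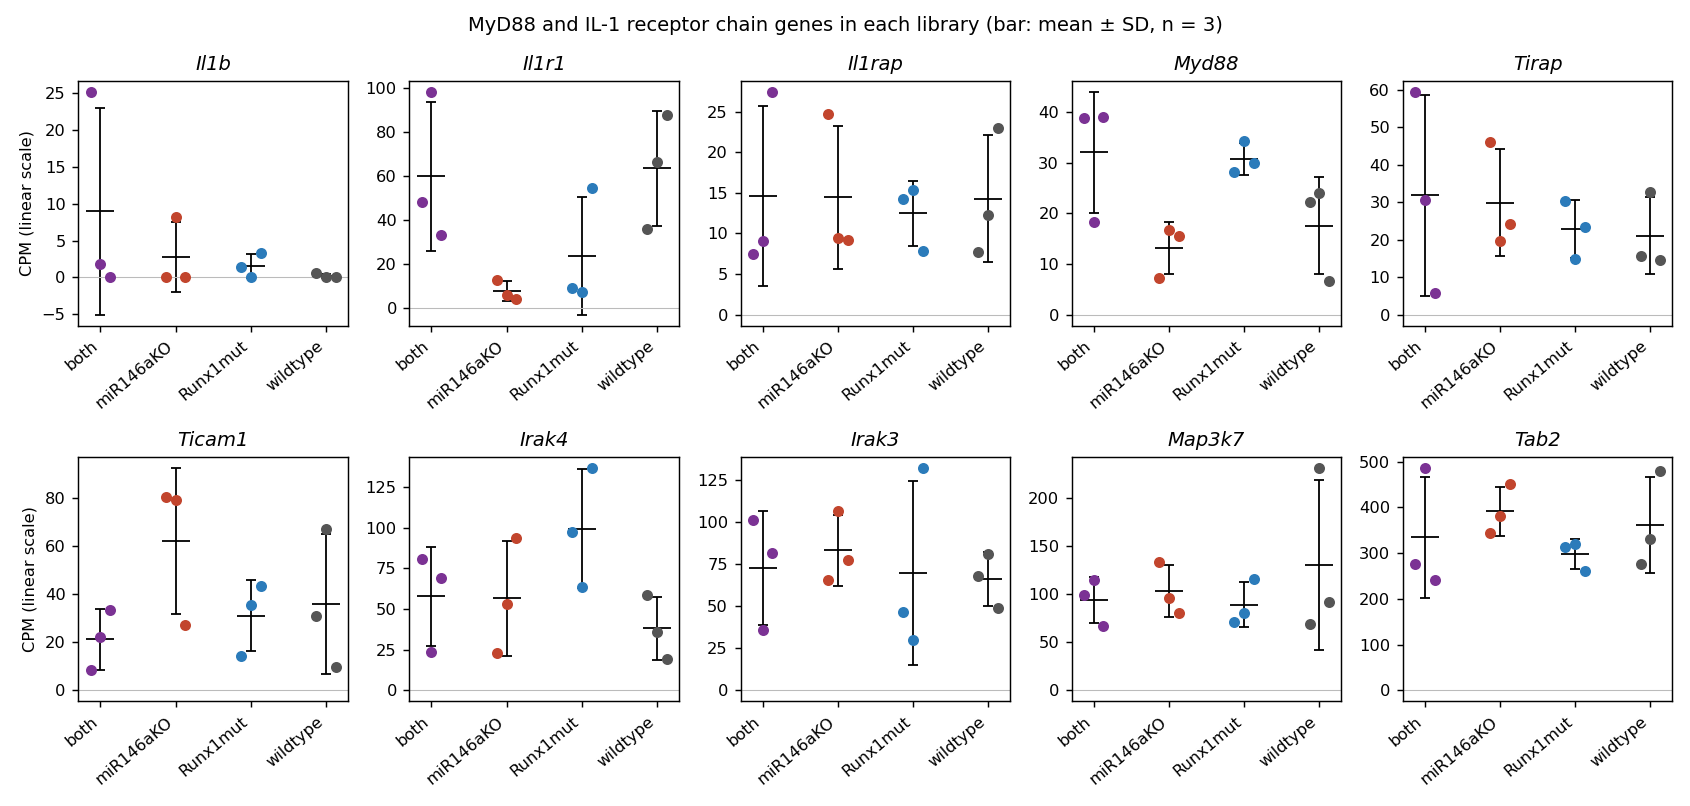
Level of each of the 10 genes in CPM on a linear axis in miR146aKO_Runx1mut ("both"), miR146aKO, Runx1mut and wildtype. Points are libraries and bars are mean ± SD (n = 3). Il1r1 sat at 4.14 to 12.6 CPM in miR146aKO, below all 3 wildtype libraries at 36.0 to 87.8 CPM. These groups did not overlap for 20.9% of all tested genes.

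The mean level of Il1r1 was 7.53 ± 4.51 CPM in miR146aKO and 63.4 ± 26.1 CPM in wildtype (SD, n = 3 each). The log2 fold change was -3.08 (SE 0.84, 95% interval -4.88 to -1.28). Its edgeR adjusted p over all tested genes was 0.116 (unadjusted 0.00255, rank 275 of 12744), so it was not called. With the Runx1 mutation alone, the level was 23.5 ± 26.7 CPM, a log2 fold change of -1.43 from wildtype (SE 0.78, edgeR adjusted p = 0.945). Without library A058 that estimate was -2.96.

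With both changes, Il1r1 averaged 59.8 ± 33.9 CPM, against 7.53 ± 4.51 CPM in miR146aKO (SD, n = 3 each). The log2 fold change was 2.99 (SE 0.84, 95% interval 1.20 to 4.79, edgeR adjusted p = 0.146, unadjusted 0.00303). Every library with both changes was above every miR146aKO library, and these groups did not overlap for 19.3% of all tested genes. Against Runx1mut the log2 fold change was 1.35 (SE 0.78, edgeR adjusted p = 0.999), and against wildtype -0.08 (SE 0.77, edgeR adjusted p = 0.986).

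The interaction asks whether the Runx1 mutation acts differently without miR-146a than with it. For Il1r1 it was 4.43 on the log2 scale (SE 1.14, 95% interval 1.98 to 6.88), rank 64 of 12744 (edgeR adjusted p = 0.312, unadjusted 0.00168). It was 5.96 without A058 and 3.88 without A031. DESeq2 called Il1r1 in miR146aKO against wildtype (adjusted p = 0.00648), in both changes against miR146aKO (adjusted p = 0.0120) and in the interaction (adjusted p = 0.0188). edgeR without a count filter called the same contrasts, with adjusted p of 0.00602, 0.0119 and 0.00792. limma-voom called none of them. In the same contrasts DESeq2 called 839, 653 and 166 of 12744 tested genes. edgeR without a count filter called 796, 549 and 268 of 19210 genes.

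**Figure D2:**
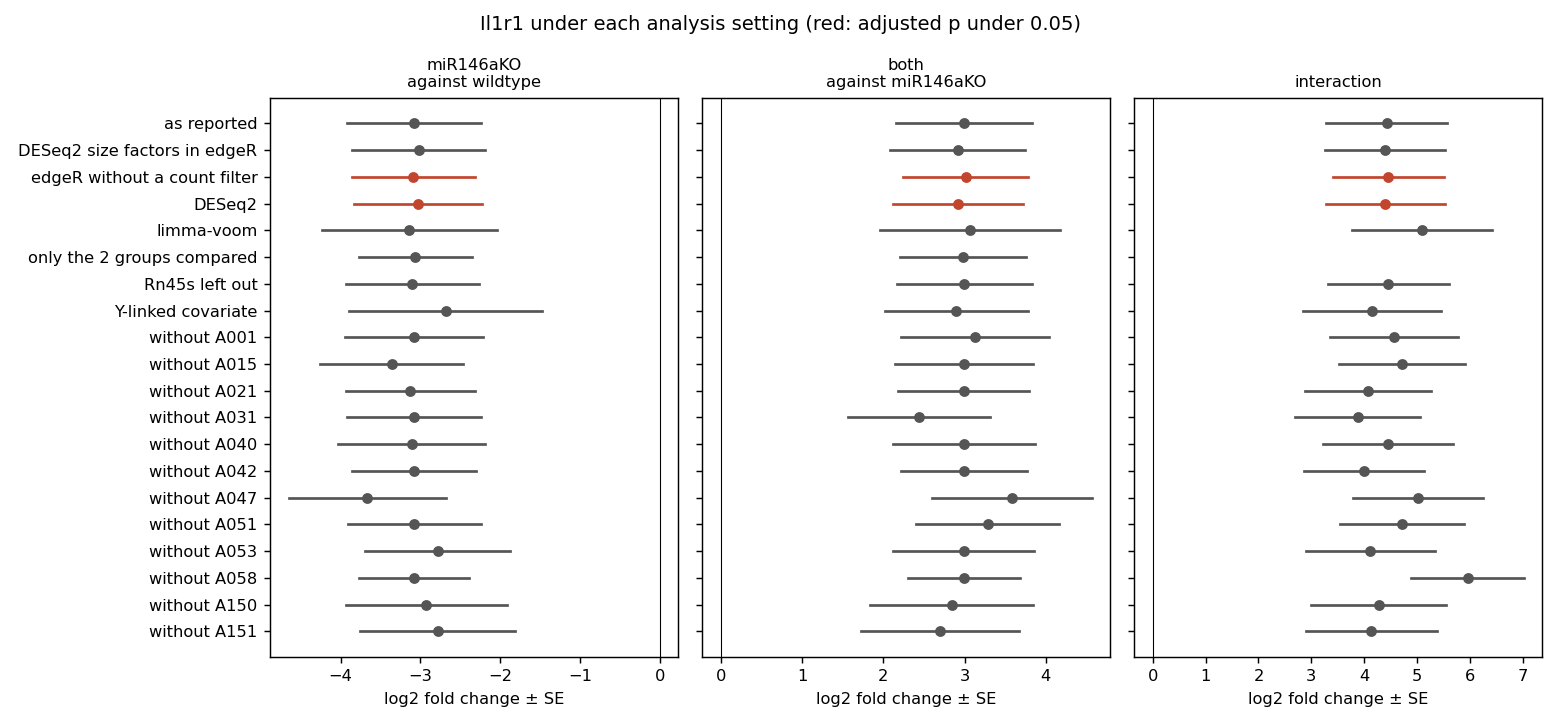
log2 fold change of Il1r1 ± SE (x axis) in miR146aKO against wildtype, both changes against miR146aKO and the interaction under each analysis setting and with each library left out (y axis). Red marks an adjusted p under 0.05, which DESeq2 and edgeR without a count filter gave; the estimate kept its sign in all settings drawn, and the interaction had no 2-group fit.

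Cell type markers also differed between these groups. Stem cell markers (10 of 10 detected in each group) summed to 143 to 409 CPM in miR146aKO and 918 to 3040 CPM in wildtype. With both changes the sum was 43.1 to 1022 CPM, and with Runx1mut alone 95.2 to 1350 CPM. All miR146aKO libraries were thus low, and all wildtype libraries high, in both Il1r1 and this sum. Of the other libraries, A031 was high in both and A021 low in both. For the rest the values were as follows. A042 had a sum of 1350 CPM with 7.11 CPM of Il1r1, and A001 a sum of 43.1 CPM with 48.2 CPM of Il1r1. A051 and A058 had sums of 237 and 216 CPM, within the miR146aKO range, with 33.2 and 54.2 CPM of Il1r1. By the mean log2 CPM of the same markers, A051 (1.26) and A058 (2.52) lay below the miR146aKO range of 2.68 to 4.41. Whether the Il1r1 levels depend on stem cell content was not tested.

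Monocyte and macrophage markers (16 of 16 detected in each group) summed to 698 to 8323 CPM in miR146aKO and 325 to 570 CPM in wildtype. With both changes the sum was 799 to 5206 CPM, and in Runx1mut 265 to 742 CPM. All 10 B cell markers were detected in miR146aKO, and 9 of 10 in wildtype, where Pax5 was at 0. Megakaryocyte markers summed to 55.0 to 97.4 CPM in miR146aKO and 265 to 1578 CPM in wildtype. With both changes their sum was 8.10 to 1860 CPM, and in Runx1mut 117 to 1610 CPM. Neutrophil markers (14 of 14 detected) summed to 13441 to 60102 CPM with both changes and 3861 to 12220 CPM in miR146aKO. These groups did not overlap in the sum but did in the mean log2 CPM, at 6.87 to 8.77 and 5.25 to 7.30. The neutrophil sums were 2338 to 28777 CPM in wildtype and 2738 to 56884 CPM in Runx1mut. Mast cell and basophil markers summed to 99.9 to 422 CPM with both changes and 6.78 to 44.3 CPM in miR146aKO. Wildtype overlapped each of these groups. The part of these cell types in the Il1r1 levels was not tested. In bulk samples fewer cells of a type and less RNA per cell cannot be told apart.

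The Y-linked genes summed to 99.3 to 241 CPM in miR146aKO and 0.547 to 32.0 CPM in wildtype. With both changes they summed to 13.8 to 214 CPM, and in Runx1mut to 26.2 to 170 CPM. Y-linked expression was thus unevenly spread over the groups, and the sex of the cells was not established. With the Y-linked level as a covariate, Il1r1 in miR146aKO against wildtype had a log2 fold change of -2.68 (SE 1.21, edgeR adjusted p = 0.511). In both changes against miR146aKO it was 2.90.

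**Figure D3:**
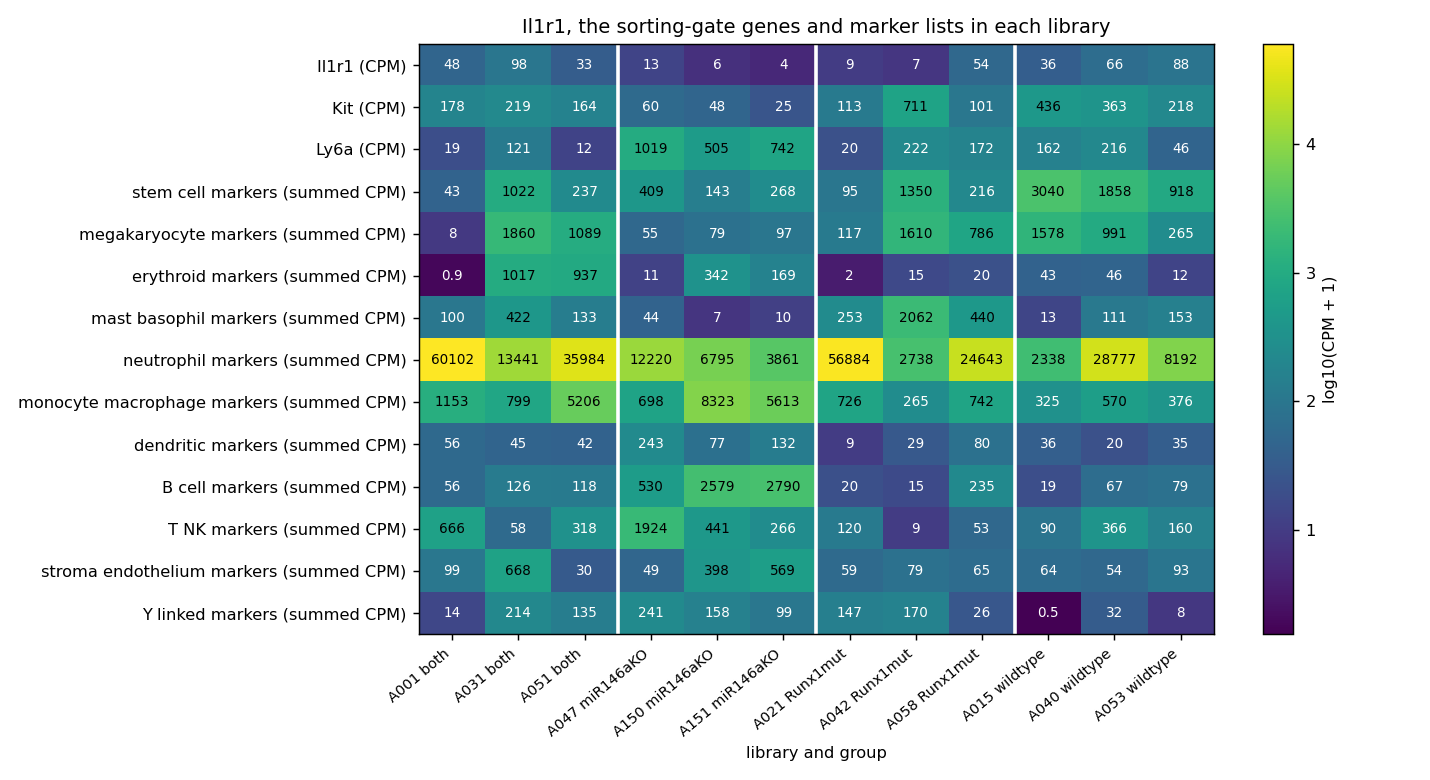
Il1r1, the gate genes Kit and Ly6a, and summed levels of marker lists (rows) in each library (columns, grouped from left as both changes, miR146aKO, Runx1mut and wildtype). Cells give CPM and colour gives log10(CPM + 1); B cell markers summed to 530 to 2790 CPM in miR146aKO, where Il1r1 was 4.14 to 12.6 CPM.

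Il1rap encodes the accessory protein that pairs with the bound receptor to start the signal (chr16:26581704-26730117, plus strand). It averaged 1.23 CPM per kb over the 12 libraries, and it and Il1b were the lowest members per length. With both changes its level was 7.41 to 27.4 CPM, and in miR146aKO 9.25 to 24.7 CPM. In Runx1mut it was 7.87 to 15.4 CPM and in wildtype 7.66 to 22.9 CPM. All 4 groups overlapped, and no estimate differed from 0 beyond its interval. For miR146aKO over wildtype the interval of the log2 fold change ran from -1.75 to 1.78, wide enough to hold a fold change of either sign.

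Myd88 encodes the adaptor that most of these receptors use (chr9:119335934-119341411, minus strand). Its level was 38.8, 18.3 and 39.0 CPM in miR146aKO_Runx1mut libraries A001, A031 and A051. In miR146aKO it was 7.27, 16.7 and 15.6 CPM, in Runx1mut 28.1, 34.3 and 29.9 CPM, and in wildtype 22.2, 24.0 and 6.55 CPM. The groups with the Runx1 mutation had the higher means, though library A031 with both changes lay below wildtype libraries A015 and A040. The 3 Runx1mut libraries all stood above the wildtype libraries, groups that did not overlap for 12.1% of all tested genes. The libraries with both changes all stood above those of miR146aKO, groups that did not overlap for 19.3% of all tested genes.

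The tests did not separate these groups. Over wildtype, the log2 fold change of Myd88 was 0.81 in Runx1mut (SE 0.65, edgeR adjusted p = 1.00). Over miR146aKO, it was 1.28 with both changes (SE 0.66, 95% interval -0.15 to 2.70, edgeR adjusted p = 0.388). Acaa1a overlaps Myd88 on the other strand, so some of these reads may be of either gene.

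Tirap encodes the adaptor that brings MyD88 to the membrane under some Toll-like receptors, and was the member with miR-146a seed matches (chr9:35184551-35200291, minus strand). Its level was 59.4, 30.6 and 5.82 CPM with both changes, 46.1, 19.6 and 24.1 CPM in miR146aKO, 30.2, 14.9 and 23.4 CPM in Runx1mut and 15.7, 32.9 and 14.5 CPM in wildtype. The libraries with both changes spanned 10.2-fold, the whole range of the gene. For miR146aKO over wildtype the interval of the log2 fold change was -1.11 to 2.13.

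Ticam1 encodes TRIF, the adaptor of the MyD88-independent branch below Toll-like receptors (chr17:56269319-56276786, minus strand). Its level was 8.27, 22.0 and 33.5 CPM with both changes and 80.3, 79.1 and 27.3 CPM in miR146aKO. In Runx1mut it was 14.5, 35.6 and 43.3 CPM, and in wildtype 30.9, 67.1 and 9.54 CPM. Libraries A047 and A150 of miR146aKO were the highest of all 12, but A151 lay within the range of both changes. The log2 fold change of both changes over miR146aKO was -1.55 (SE 0.76, 95% interval -3.19 to 0.09, edgeR adjusted p = 0.362).

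Irak4 encodes the first kinase that MyD88 recruits (chr15:94543643-94581815, plus strand). Its level was 81.0, 23.5 and 69.1 CPM with both changes and 22.8, 53.2 and 93.5 CPM in miR146aKO. It was 97.2, 63.7 and 137 CPM in Runx1mut libraries A021, A042 and A058, against 58.6, 36.0 and 19.5 CPM in wildtype. Every Runx1mut library was above every wildtype library, though A042 and wildtype library A015 lay close together. These groups did not overlap for 12.1% of all tested genes. The log2 fold change was 1.38 (SE 0.63, 95% interval 0.04 to 2.72), with an unadjusted p of 0.0442 and an edgeR adjusted p of 0.889. Leaving out single libraries gave 1.07 to 1.84. The unadjusted p was 0.141 without A053, 0.146 without A058, 0.0917 without A040, 0.0702 without A021, 0.0514 without A150 and 0.0513 with DESeq2 size factors. With the Y-linked covariate the estimate was 2.20 (edgeR adjusted p = 0.658). Twf1 overlaps Irak4 on the other strand, as Tmbim4 does Irak3, Srpr does Tirap and Gm20319 does Il1rap. Where the exons of these pairs overlap, reads may be of either gene.

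Irak3 encodes IRAK-M, a catalytically inactive relative that restrains the chain (chr10:120141648-120202130, minus strand). With both changes its level was 35.5 to 101 CPM, and in miR146aKO 65.4 to 106 CPM. In Runx1mut it was 30.2 to 132 CPM and in wildtype 49.0 to 80.8 CPM. Library A058, the Runx1mut library with the most Il1r1, was also the highest for Irak3. All groups overlapped, and over wildtype the interval of the log2 fold change in miR146aKO was -0.86 to 1.53.

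Map3k7 (chr4:31964097-32023467, plus strand) encodes TAK1, the kinase on which the chain converges. Tab2 (chr10:7905653-7956230, minus strand) encodes the subunit that ties TAK1 to ubiquitin chains. Map3k7 ran from 67.4 to 115 CPM with both changes, from 80.3 to 133 CPM in miR146aKO, from 71.4 to 116 CPM in Runx1mut and from 68.7 to 231 CPM in wildtype, where A040 was the highest library of all. Tab2 ran from 241 to 487 CPM with both changes, from 345 to 450 CPM in miR146aKO, from 262 to 320 CPM in Runx1mut and from 277 to 480 CPM in wildtype. Map3k7 overlapped between all groups. Tab2 overlapped between all groups but miR146aKO and Runx1mut, which no contrast here compares, with every miR146aKO library the higher. The share of all tested genes without overlap was not counted for that pair. It was 9.27% to 20.9% in the contrasts between groups made here, so nothing is drawn from it. Tab2 was the steadiest member. Its SD of log2 CPM within groups was 0.36, lower than in all but 4.78% of tested genes, against a median of 0.97.

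The narrow spread of Tab2 bounds its change. Over wildtype the 95% interval of its log2 fold change was -0.86 to 0.63 with both changes, -0.63 to 0.85 in miR146aKO, and -1.02 to 0.46 with the Runx1 mutation alone. At the other end, Il1b had a within-group SD of 2.23, and its intervals were wide. Over wildtype, the interval of its log2 fold change was -0.44 to 11.2 with both changes. Il1r1 itself was of ordinary spread within groups, with an SD of 1.02, at the 52.8th percentile of tested genes.

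Set per length, the chain had a broad order in these cells. Levels averaged over the 12 libraries were 56.5 CPM per kb for Tab2, 19.8 for Irak3, 16.2 for Map3k7, 12.6 for Ticam1, 12.5 for Irak4, 9.08 for Myd88, 6.06 for Il1r1, 5.37 for Tirap, 1.76 for Il1b and 1.23 for Il1rap. Tab2 was above Irak3 in 12 of 12 libraries. Other neighbours were less separate. Irak3 was above Map3k7 in 7 libraries, Ticam1 above Irak4 in 4, Il1r1 above Tirap in 6 and Il1b above Il1rap in 4, so these pairs had no settled order. The mean of Il1b rests on the 13.2 CPM per kb of library A001, and Il1b was below Il1rap in 8 libraries. Tirap was above Il1b in 10 libraries, Map3k7 above Ticam1 and Myd88 above Il1r1 in 9, and Irak4 above Myd88 in 8.

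**Figure D4:**
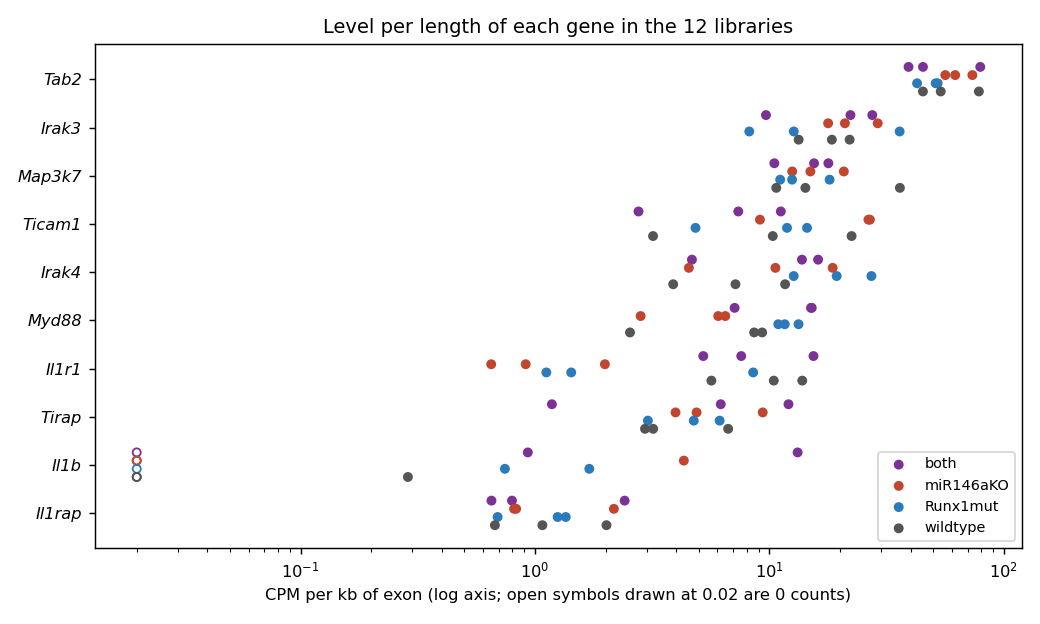
CPM per kb of exon on a log axis (x) for each gene (y, ordered by its mean) in the 12 libraries, coloured by group, with 0 counts drawn as open symbols. Tab2 stood highest, with a mean of 56.5 CPM per kb, and Il1b, above Il1rap in 4 of 12 libraries, and Il1rap lay at the bottom.

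Counts over the 10 genes are set here beside the same counts over all tested genes. In miR146aKO against wildtype, 0 of 10 were called by edgeR, where 0.180% of all tested genes were, and 1 had an unadjusted p under 0.05, where 15.9% of all genes had. The libraries did not overlap for 1 of 10, Il1r1, lower in miR146aKO, and for 20.9% of all genes. DESeq2 called 1 member and 839 of all 12744 tested genes. edgeR without a filter called 1 member and 796 of 19210 genes, and limma-voom 0 members and 76 of 12744 genes. The median log2 fold change was 0.22 for the members, 7 of 10 on the higher side, and -0.00 for all tested genes, 49.9% on the higher side.

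For Runx1mut against wildtype, 0 were called against a background of 0%, and 1 of 10 (Irak4) had an unadjusted p under 0.05, against 5.52%. The libraries did not overlap for 2, Myd88 and Irak4, both higher in Runx1mut, and for 12.1% of all genes. The median was -0.06 for the members and 0.01 for all genes. DESeq2, limma-voom and edgeR without a filter called 0 members.

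Both changes against wildtype gave 0 calls against a background of 0%, 0 members with an unadjusted p under 0.05 against 9.42%, and 0 without overlap against 13.5%. Both changes against Runx1mut gave 0 calls against 0%, 0 members under an unadjusted 0.05 against 4.63%, and 0 without overlap against 9.27%. Median log2 fold changes of the members were 0.09 and 0.12, against 0.03 and 0.01 for all genes. In these contrasts DESeq2, limma-voom and edgeR without a filter called 0 members too.

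With both changes against miR146aKO, 0 were called by edgeR against 0.0157%. Il1r1 had an unadjusted p under 0.05, as 14.8% of all genes did. The libraries did not overlap for Myd88 and Il1r1, both higher with both changes, and for 19.3% of all genes. For the interaction 0 were called against 0.0235%, and 1 of 10, again Il1r1, had an unadjusted p under 0.05, against 9.46%. Median log2 fold changes were 0.02 and 0.01 for the members, against -0.01 and 0.03 for all genes. The contrasts share libraries and are not independent of each other.

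**Figure D5:**
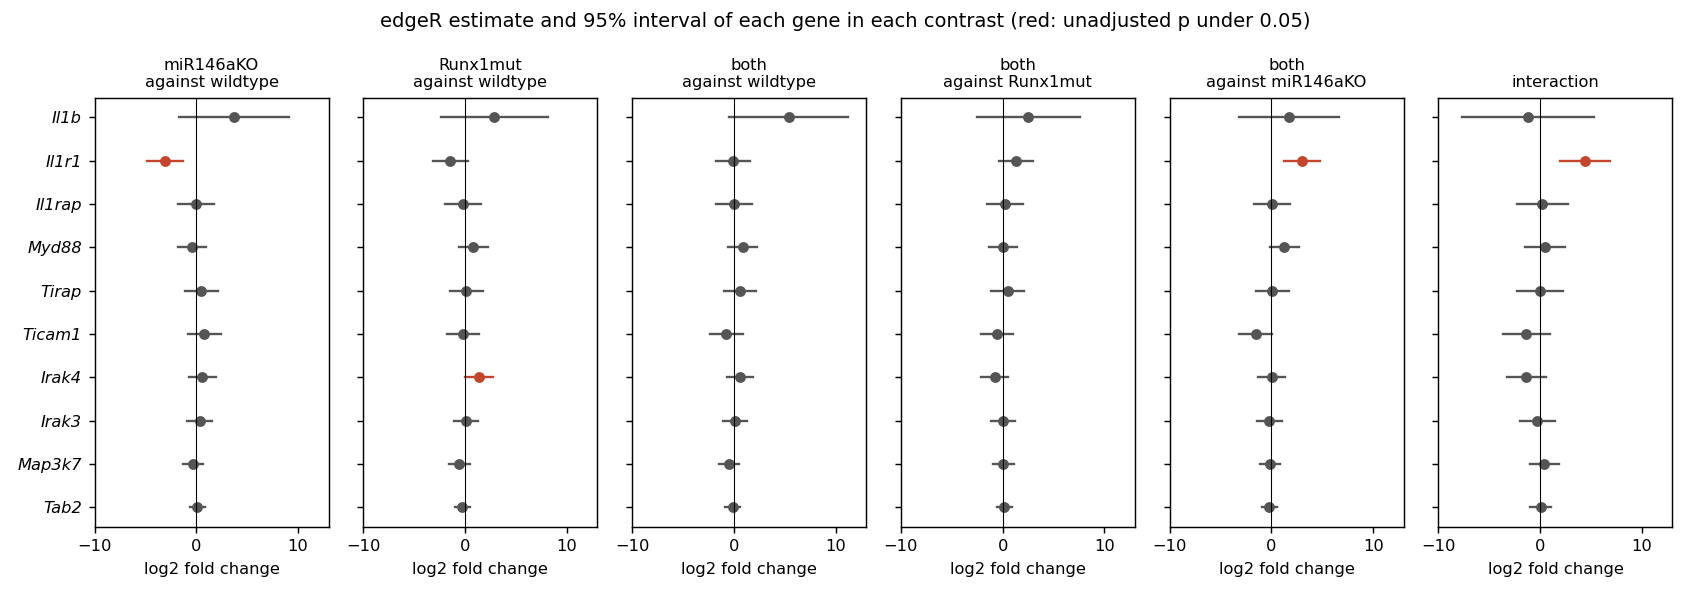
edgeR log2 fold change (x axis) with its 95% interval for each gene (y axis) in the 6 contrasts, where "both" is miR146aKO_Runx1mut. Red marks an unadjusted p under 0.05, which Il1r1 reached in 3 contrasts and Irak4 in 1; no member had an edgeR adjusted p under 0.05.

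The members did not move as a unit across libraries either. Over the 45 pairs of members, Pearson's r of log2 CPM over the 12 libraries had a median of -0.04, with 21 pairs positive. The highest was 0.72, for Myd88 and Irak4, and the lowest -0.70, for Myd88 and Tab2. All values share the same libraries, depth and scaling, so these are descriptions.

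Among 9579 genes with a mean log2 CPM of at least 2, those most like each member over the 12 libraries were mostly of other functions. For Il1r1 they were Polr3k, a subunit of RNA polymerase III (r = 0.87), and Prpf8, a core splicing factor (r = 0.82). For Myd88 they were the kinase gene Alpk1 (r = 0.94) and Cpd (r = 0.92), and for Irak4 Mfsd3 (r = 0.88) and Polr2g (r = 0.86). Ticam1 was most like Gtpbp2 (r = 0.93) and Tnfrsf13b, a TNF receptor family gene of B cells (r = 0.87). Tirap was most like Ier3ip1 (r = 0.92) and Lyrm2 (r = 0.91), Irak3 like Hspa13 (r = 0.87) and Dmxl2 (r = 0.85), and Il1rap like Xrn2 (r = 0.91) and Helz (r = 0.80). Map3k7 was most like Gosr2 (r = 0.90) and Selt (r = 0.88), Tab2 like Zcchc11 (r = 0.91) and Bptf (r = 0.88), and Il1b like Cnih4 (r = 0.83) and Trappc11 (r = 0.82). Each is the top of many genes compared, so a high r was bound to occur.

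Irak1, Irak2 and Traf6 link the members and hold the seed matches shown above. Irak1 had 196, 180 and 171 CPM with both changes, 173, 90.3 and 144 CPM in miR146aKO, 183, 102 and 198 CPM in Runx1mut and 101, 220 and 132 CPM in wildtype. Traf6 had 115, 189 and 103 CPM with both changes, 119, 97.0 and 66.9 CPM in miR146aKO, 121, 85.8 and 54.1 CPM in Runx1mut and 83.7, 69.7 and 151.4 CPM in wildtype. All groups overlapped for both genes.

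Irak2 did not overlap between miR146aKO and wildtype, as 20.9% of all tested genes did not. It had 51.5, 33.4 and 47.5 CPM in miR146aKO libraries A047, A150 and A151, against 5.88, 2.66 and 7.83 CPM in wildtype libraries A015, A040 and A053. With both changes it had 2.24, 17.9 and 18.4 CPM, and in Runx1mut 10.1, 16.2 and 34.7 CPM. Over wildtype the log2 fold change was 3.00 in miR146aKO (SE 0.87, 95% interval 1.15 to 4.86, edgeR adjusted p = 0.126). Its interaction was -3.66 (SE 1.17, edgeR adjusted p = 0.352), of the opposite sign to that of Il1r1. DESeq2 called Irak2 in miR146aKO against wildtype (adjusted p = 0.00687), a contrast in which it called 839 of 12744 tested genes.

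A wider list of 54 genes of interleukin-1 and Toll-like receptor signalling, the members included, had 50 tested genes. edgeR called 0 of them in each of the 6 contrasts. With an unadjusted p under 0.05, 8 of 50 were higher and 2 lower in miR146aKO than in wildtype, where 15.9% of all tested genes had such a p. Irak2 was among the 8 higher, and the 2 lower were Il1r1 and Ube2n. For Runx1mut against wildtype 5 were higher and 0 lower, against 5.52% of all genes, and for both changes against wildtype 4 were higher and 1 lower, against 9.42%. Both changes against Runx1mut gave 3 higher and 0 lower, against 4.63%, and both changes against miR146aKO 4 higher and 4 lower, against 14.8%. For the interaction 3 were above 0 and 3 below, against 9.46%.

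Some of the genes of smallest p had large values in few libraries. Il1rl1, the receptor of interleukin-33 found on mast cells, had 426 CPM in Runx1mut library A042, 123 CPM in miR146aKO library A047 and 61.1 CPM in A031 with both changes, and at most 23.1 CPM elsewhere. Mast cell and basophil markers summed to 2062 CPM in A042, 44.3 CPM in A047, 422 CPM in A031 and 440 CPM in Runx1mut library A058, where Il1rl1 was 23.1 CPM, and their part in the Il1rl1 levels was not tested. Il1rn, the antagonist of the receptor, had 25.2, 115 and 0 CPM with both changes, 0.317, 21.5 and 53.3 CPM in miR146aKO, and at most 1.84 CPM in Runx1mut and wildtype.

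Among genes of interleukin-1 maturation, Nlrp3, the inflammasome sensor, had 10.3, 9.06 and 2.18 CPM with both changes. It lay at 0 to 1.69 CPM in miR146aKO, and in Runx1mut at 0.427 to 7.01 CPM, against 0 to 0.142 CPM in wildtype. Casp1, the protease that matures interleukin-1 beta, had 77.9, 125 and 85.8 CPM with both changes, against 33.5, 28.7 and 39.7 CPM in Runx1mut. The log2 fold change was 1.504 (SE 0.54, edgeR adjusted p = 0.979). These groups did not overlap, as for 9.27% of all tested genes. Peli1, a ubiquitin ligase that acts on IRAK proteins, had 21.4, 38.9 and 16.0 CPM with both changes, against 102, 45.0 and 69.1 CPM in miR146aKO. Its log2 fold change was -1.50 (SE 0.52, edgeR adjusted p = 0.204), and the groups did not overlap, as for 19.3% of all tested genes. Casp1 and Peli1 are named for their small p in these contrasts, so a lack of overlap adds nothing to it.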

How the data were processed

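Per the labels' protocols, RNA of the sorted cells was amplified with the NuGEN Ovation v2 kit and made into libraries with Nextera XT, which do not keep strand. The submitters' processing notes name the build mm10, featureCounts 1.5.2, HISAT2 2.0.4 and FastQC 0.11.2. For the strand setting, reads with several matches and the annotation, they are silent: not given in the sources used here. The authors deposited raw read counts per gene symbol, 1 column per library, with no replicate number. A single edgeR 4.0.16 quasi-likelihood fit (R 4.3.3) covered all 12 libraries, with TMM scaling and the default low-count filter, and calls were made at p under 0.05 after Benjamini-Hochberg adjustment over 12744 genes. The common biological coefficient of variation was 0.809. CPM use TMM factors, and log2 CPM a prior count of 2. Total counts of 3540043 to 7026393 limit the precision of low genes. The fit was tested on simulated data, with a pass required only at a lower spread than these data had.

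Levels per kb and 3'UTRs used GENCODE vM21 (GRCm38), in which 95.7% of symbols matched a gene. Rn45s took 3.91% to 17.8% of counts. The members and lists were chosen with earlier results of these data known. Named beside the members are Irak1, Irak2, Traf6, the 2 wider-list genes of smallest p per contrast, and the 2 genes of highest r per member; fold changes of members are printed for Il1r1 and for others chosen mostly by an unadjusted p under 0.1 after their values were seen. Alternatives were DESeq2 1.42.0, limma-voom 3.58.1, other size factors, no filter, Rn45s left out, only the groups compared, a Y-linked covariate and each library left out.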

Additional observations from a re-analysis of the deposited data

How the results depend on the processing

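Under DESeq2 and under edgeR without a count filter, 1 member (Il1r1) was called in place of 0 in miR146aKO against wildtype, in both changes against miR146aKO and in the interaction, with log2 estimates of -3.03 and -3.09, 2.92 and 3.01, and 4.40 and 4.45. The wider list then had 3, 1, 2, 2, 2 and 2 calls without a filter in the order miR146aKO, Runx1mut and both changes against wildtype, both changes against Runx1mut, both changes against miR146aKO, and interaction, and 3, 1, 1, 0, 2 and 1 by DESeq2. No other setting, and no library left out, gave a call among members or list. Over all genes, edgeR called 23 of 12744 in miR146aKO against wildtype, and edgeR without a filter 796 of 19210. DESeq2 called 839 and limma-voom 76 of 12744, and the fit of those groups alone 158 of 11418. The Y-linked covariate gave 0 calls, and leaving out single libraries 2 to 135. In the other contrasts, in the same order, no filter gave 162, 256, 144, 549 and 268 calls, DESeq2 115, 192, 78, 653 and 166, and edgeR 0, 0, 0, 2 and 3. The cause was not tested.

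Leaving out single libraries moved Il1r1 between -3.67 and -2.79 in miR146aKO against wildtype, between 2.44 and 3.58 in both changes against miR146aKO, between 3.88 and 5.96 in the interaction, between -2.96 and -1.004 in Runx1mut against wildtype and between 0.80 and 2.88 in both changes against Runx1mut. For both changes against wildtype, -0.08 became 0.22 with the Y-linked covariate, and 0.05, 0.21 and 0.21 without A001, A051 and A053 (range -0.64 to 0.21). The median of the members in miR146aKO against wildtype was -0.22 with the Y-linked covariate, and 4 of 10 were then on the higher side. Of 50 other member estimates, with adjusted p of at least 0.383, 35 changed sign under some alternative. No paired analysis was possible because the columns carry no replicate number.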
